A study of Homo sapiens with 8 samples.

Results

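SLA, TG and CCN4 are 3 neighbouring genes on chromosome 8q24, out of 20090 protein-coding genes in the annotation used. SLA (ENSG00000155926, chr8:134048973-134115156 of hg19, minus strand) lies wholly inside TG (ENSG00000042832, chr8:133879203-134147147, plus strand), and CCN4 (ENSG00000104415, chr8:134203282-134243933, plus strand) begins beyond the 3′ end of TG. They share a topologically associating domain (TAD), chr8:133880001-134240000, which is 360 kb long. The genes were chosen by measured values: of the 71 TADs in which the study lists increased chromatin interactions upon ATRA induction, this TAD had the largest log2 change of H3K4me3 covered length with 1000 bp added (it ranked 1st with 5000 bp and 3rd with 100 bp). The H3K4me3 changes of the domain and of its parts are therefore descriptions, and no test was made on them.

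SLA encodes the Src-like adaptor, a protein with SH3 and SH2 domains that brings the ubiquitin ligase CBL to antigen receptors and to receptor tyrosine kinases and so lowers their level at the cell surface. It is known from blood cells. TG encodes thyroglobulin, the thyroid protein on which thyroid hormone is made, and CCN4 encodes a secreted matricellular protein that responds to WNT signaling. H3K4me3 is a histone mark of active gene starts, usually within CpG-rich promoters, and H3K27ac marks active gene starts and enhancers. Long unbroken stretches of H3K27ac are known from genes that are highly active in a cell type.

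The cells were HL-60, an established human leukemia line that differentiates towards granulocytes with all-trans retinoic acid (ATRA). The ATRA group received 1 µM ATRA for 4 days and the control group an equal amount of ethanol, the solvent of ATRA, and ChIP-seq for each mark was made in 2 replicates per group, in 8 libraries. All of them come from 1 cell line, and the labels do not say whether the replicates were separate cultures. The values are the positions of the broad peaks that the authors called in each library, so a level here is the number of base pairs under peaks, called covered length.

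Read counts were not part of the peak lists, so the depth of each library is not known. The H3K4me3 libraries held between 13241 and 16487 peaks over 47.7 to 63.2 Mb, and the H3K27ac libraries between 15457 and 39332 peaks over 28.8 to 86.1 Mb, with control replicate 1 the lowest. The genome-wide log2 ratio of ATRA to control covered length was 0.22 for H3K4me3 and 0.87 for H3K27ac. Values scaled to the same genome-wide covered length are therefore given for the regions of the domain where they change a statement. For the gene lists they are given as counts. Covered lengths of single genes outside the domain are unscaled, and scaling can make groups overlap that are apart here. No difference was tested across libraries, since the smallest p that 2 against 2 allow is 0.33 in an exact two-sided permutation test. Groups are said not to overlap where both ATRA libraries lie above both control libraries, and the share of all windows or genes that do the same is given beside such a statement. Markers of blood and other cell types were read at their starts. Of 8 myeloid markers, 5 had H3K4me3 within 2 kb of a start in both control libraries, among them MPO and SPI1, while ELANE and LYZ had neither mark in any library. CTSG had less H3K27ac in both ATRA libraries (903 and 2317 bp against 3002 and 3464 bp). For the myeloid list, 1 gene was higher and 0 lower with ATRA for H3K4me3 and 1 higher and 1 lower for H3K27ac, and after scaling 1 was higher and 3 lower for each mark. MPO and SPI1 had the same H3K4me3 covered length in all 4 libraries (10352 and 4157 bp), so scaling alone made them lower. The same applies to SPI1 for H3K27ac (4157 and 4157 bp against 4157 and 4023 bp). None of the 3 erythroid markers carried a peak of either mark, and the 3 epithelial markers carried none but 100 bp of H3K27ac at CDH1 in ATRA replicate 2. Of the 4 T cell markers, CD4, which monocytes share, carried H3K4me3 in all 4 libraries and CD3D, CD3E and CD2 in none, and CD3E carried H3K27ac of 446 and 3427 bp in the ATRA libraries alone. Among the B cell markers, MS4A1 and PAX5 had neither mark in any library, and CD79A had H3K4me3 in both ATRA libraries and in control replicate 1. The 4 granulocytic differentiation genes ITGAM, CYBB, FGR and CD38 had more of both marks in both ATRA libraries than in either control library, also after scaling. Of all genes with the mark at their starts, 27.6% did so for H3K4me3 and 36.1% for H3K27ac, and 8.50% and 12.8% after scaling. With only peaks of a deposited −log10 q of at least 5, 2 of these 4 genes did so for H3K4me3 and 0 for H3K27ac.

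The H3K4me3 covered length of the domain was 27522 and 23272 bp in ATRA replicates 1 and 2 and 5263 and 3889 bp in control replicates 1 and 2. The means were 25397 ± 3005 bp and 4576 ± 972 bp (SD, n = 2 each), a log2 ratio of 2.24 with 1000 bp added to each mean. The H3K27ac covered length was 137140 and 117843 bp in the ATRA libraries against 16384 and 36042 bp in the control libraries. The means were 127492 ± 13645 bp and 26213 ± 13900 bp (SD, n = 2 each), and the log2 ratio was again 2.24. Both marks were higher in both ATRA libraries, and neither pair of groups overlapped, also after scaling. In bulk chromatin, a mark in more of the cells and more of the mark per cell cannot be told apart. Over all 360 kb windows with a peak, 44.8% did the same for H3K4me3 and 37.3% for H3K27ac, so the direction itself is shared with a large part of the genome. Among windows whose groups did not overlap, 94.8% were higher with ATRA for H3K4me3 and 91.3% for H3K27ac, and after scaling the split was even, with 47.5% and 46.4% higher. Within replicate numbers, the domain had 5.23-fold and 5.98-fold the H3K4me3 covered length and 8.37-fold and 3.27-fold the H3K27ac covered length in ATRA cells. The H3K27ac ratio depended on the control libraries, with a log2 value of 2.89 without control replicate 2 and 1.79 without control replicate 1.

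**Figure D1:**
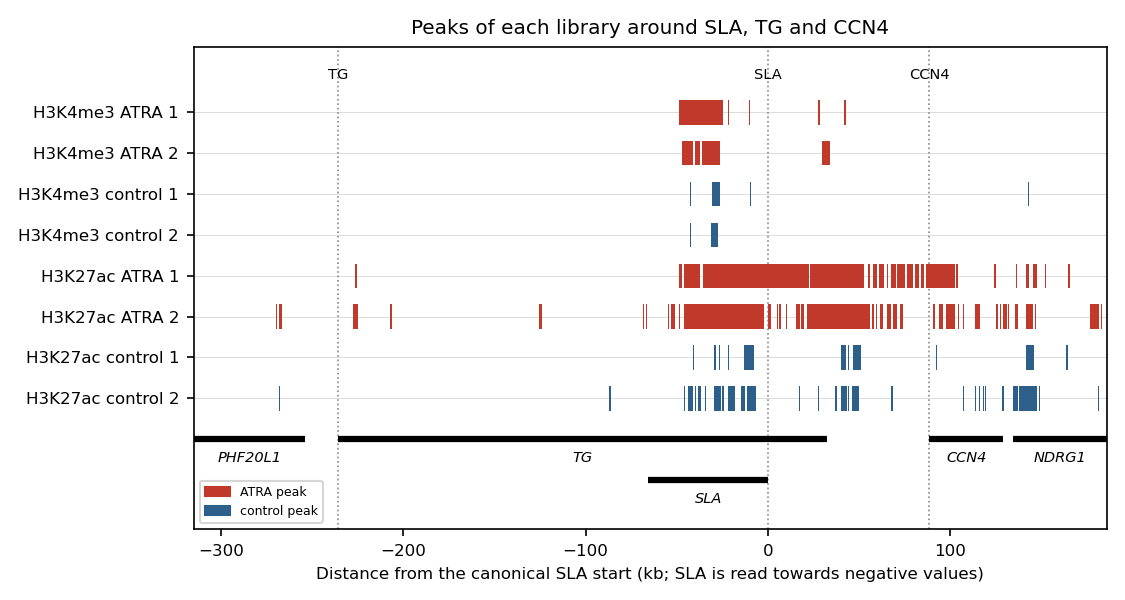
Peaks of each of the 8 libraries (rows; ATRA red, control blue) over the 500 kb around SLA, TG and CCN4, plotted by distance in kb from the canonical SLA start, with gene bodies as black bars and canonical starts of the 3 genes as dotted lines. TG and CCN4 are read from left to right and SLA from right to left. H3K4me3 lies mostly inside SLA, while H3K27ac of the ATRA libraries runs from SLA through the 3′ part of TG towards CCN4.

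The marks were unevenly spread inside the domain. SLA takes 18.4% of the domain's length and held 84.1% of its H3K4me3 difference, with 25544 and 18609 bp in the ATRA libraries and 5263 and 3889 bp in the control libraries. The part of TG between its own start and SLA takes 46.9% of the length and held no H3K4me3 peak in any library. For H3K27ac, SLA held 31.6% of the difference, the 3′ part of TG 23.9%, the gap between TG and CCN4 29.2%, CCN4 12.1% and the long 5′ part of TG 3.21%. The H3K4me3 difference was thus concentrated over SLA, and the H3K27ac difference was spread over SLA and everything to its right.

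The annotation places the SLA transcripts at 4 groups of start sites. The outer group (chr8:134114721-134115156) holds 14 transcripts, 10 of them protein-coding, and the canonical start at 134114846. A middle group (chr8:134087198-134088372) holds 6 transcripts, none of them protein-coding, an inner group (chr8:134072533-134072603) holds 2, of which 1 is protein-coding, and a single non-coding transcript starts near the 3′ end at 134052586. Each group was measured within 2 kb on either side of its starts.

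H3K4me3 was absent from the canonical SLA promoter and present at the internal ones. At the outer starts, covered length was 0 bp in all 4 H3K4me3 libraries, and the nearest peak was 9.76 and 26.2 kb away in the ATRA libraries and 9.37 and 27.4 kb away in the control libraries. At the inner starts, 4071 and 3485 of 4071 bp were covered in the ATRA libraries and 523 and 364 bp in the control libraries. Both ATRA libraries lay above both control libraries there, with means of 3778 ± 414 bp and 444 ± 112 bp (SD, n = 2 each). This difference is part of the one by which the domain was chosen. Over all protein-coding genes with H3K4me3 at their starts, 27.6% had both ATRA libraries above both control libraries. At the middle starts, 5175 and 3458 of 5175 bp were covered with ATRA and 3344 and 2226 bp in control cells. The lower ATRA library exceeded the higher control library by little at the middle starts, and after scaling the groups overlapped (3233 bp in ATRA replicate 2 against 3256 bp in control replicate 1). The start near the 3′ end carried no H3K4me3 and no H3K27ac in any library.

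Over all SLA starts together, a region of 17683 bp, H3K4me3 covered 9246 and 6943 bp with ATRA and 3867 and 2590 bp in control cells, a difference of 4866 bp between the means. Over the same region H3K27ac covered 13682 and 11285 bp with ATRA and 2323 and 6877 bp in control cells, a difference of 7884 bp. The groups did not overlap for either mark, as was true of 27.6% of all protein-coding genes with H3K4me3 at their starts and of 36.1% of those with H3K27ac. Among genes whose groups did not overlap, 85.6% were higher with ATRA for H3K4me3 and 89.3% for H3K27ac, and scaling turned this split to 14.8% and 28.2%. A start interval that is covered whole in every library counts as lower with ATRA by scaling alone. The scaled split at starts is therefore partly set by the length of the intervals and shows no loss of a mark. After scaling, the SLA promoters still did not overlap for H3K4me3 (8529 and 6492 bp against 3765 and 3161 bp), and for H3K27ac the margin became narrow (12331 and 7655 bp against 4714 and 7448 bp).

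H3K27ac at the SLA starts differed from H3K4me3 in its place. At the outer starts, H3K27ac covered 4436 and 2039 of 4436 bp with ATRA, against 47 bp in control replicate 1 and 0 bp in control replicate 2. The canonical start itself was under an H3K27ac peak in both ATRA libraries and in neither control library, whose nearest peaks were 2.08 and 6.80 kb away. At the inner starts, 4071 of 4071 bp were covered in both ATRA libraries and 573 and 2625 bp in the control libraries. At the middle starts, 5175 of 5175 bp were covered in both ATRA libraries and 1703 and 4252 bp in the control libraries. Scaling made the groups overlap at the inner starts (3669 and 2761 bp against 1163 and 2843 bp) and at the middle starts (4664 and 3510 bp against 3456 and 4605 bp), but not at the outer starts (3998 and 1383 bp against 95.4 and 0 bp). At the inner and middle starts both ATRA libraries were already at the full length of the region, which limits what scaling can show there. With only peaks of a deposited −log10 q of at least 5, no SLA start group had H3K27ac in either ATRA library, and control replicate 1 kept 573 bp at the inner, 1703 bp at the middle and 47 bp at the outer starts, so the difference at the outer starts depends on this threshold.

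**Figure D2:**
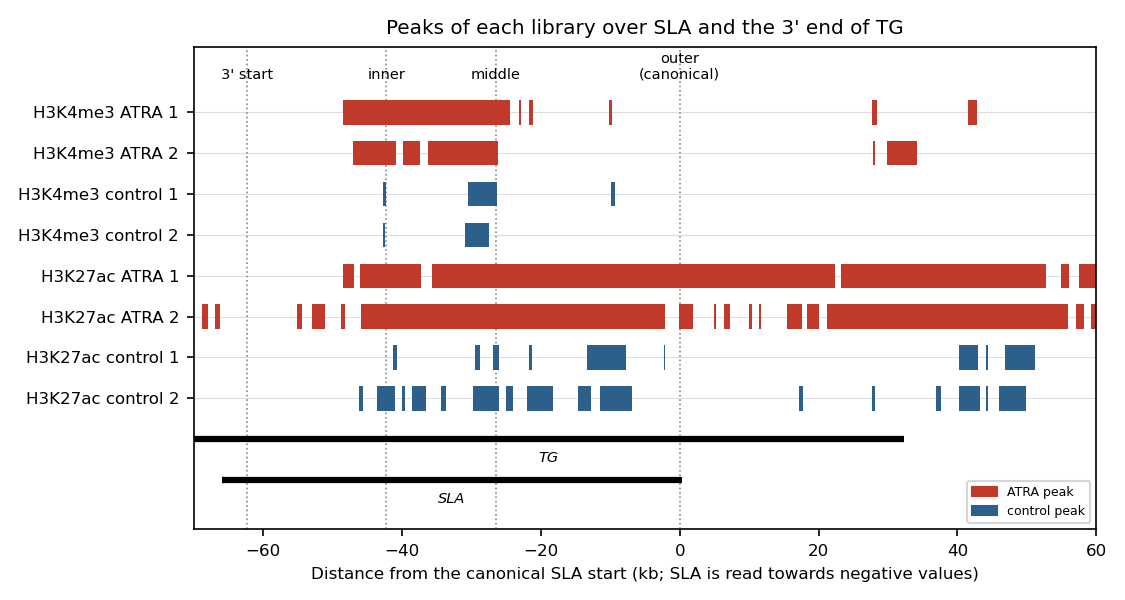
Peaks of each of the 8 libraries (rows; ATRA red, control blue) over SLA and the 3′ end of TG, by distance in kb from the canonical SLA start, with the 4 groups of SLA starts as dotted lines and gene bodies as black bars. H3K4me3 widens around the inner and middle starts in ATRA cells and is missing from the outer start in every library, which lies under H3K27ac in the ATRA libraries alone.

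The 4 libraries held 17 H3K4me3 peaks in a 500 kb window around the genes, which reaches from PHF20L1 into NDRG1. In ATRA replicate 1, 1 peak of 24120 bp (chr8:134066349-134090468) ran across the inner and middle starts, and it was the 6th longest of the 16258 H3K4me3 peaks of that library. In ATRA replicate 2, the same stretch was split into peaks of 6229 bp (chr8:134067789-134074017, over the inner starts), 2342 bp (chr8:134075037-134077378) and 10038 bp (chr8:134078618-134088655, over the middle starts). In control cells, the stretch held small peaks at the inner starts, of 523 bp in replicate 1 (chr8:134072051-134072573) and 364 bp in replicate 2 (chr8:134072051-134072414). It also held peaks at the middle starts of 4229 bp in replicate 1 (chr8:134084313-134088541) and 3525 bp in replicate 2 (chr8:134083899-134087423). The ATRA peaks thus contained the control peaks and extended them on both sides.

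The other H3K4me3 peaks were short. ATRA replicate 1 had 3 further peaks in SLA, of 350 bp (chr8:134091637-134091986), 669 bp (chr8:134093095-134093763) and 405 bp (chr8:134104685-134105089), and the last overlapped a control replicate 1 peak of 511 bp (chr8:134104962-134105472). Near the 3′ end of TG, a site was marked in both ATRA libraries, by 697 bp in replicate 1 (chr8:134142529-134143225) and 329 bp in replicate 2 (chr8:134142703-134143031). ATRA replicate 2 also had a peak of 4334 bp across the end of TG (chr8:134144736-134149069), and ATRA replicate 1 a peak of 1281 bp beyond it (chr8:134156417-134157697). Neither was found in the other ATRA library. The remaining peak, of 696 bp (chr8:134257607-134258302), lay in the body of NDRG1 in control replicate 1.

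Read base by base, 18938 bp of the domain were under H3K4me3 in both ATRA libraries and 3475 bp in both control libraries. All of the bases marked in both control libraries were also marked in both ATRA libraries. Of the bases marked in both ATRA libraries, 72.7% were marked in neither control library. The longest such stretch was 5281 bp (chr8:134078618-134083898), to the left of the middle control peak. For H3K27ac, 97548 bp were marked in both ATRA libraries and 12623 bp in both control libraries, again all of them within the ATRA stretches, and 66.9% of the ATRA bases were marked in neither control library. No base of the domain was marked in both control libraries and in neither ATRA library, for either mark.

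H3K27ac peaks of ATRA cells were among the longest of their libraries. In ATRA replicate 1, a peak of 58094 bp (chr8:134079105-134137198) covered the middle and outer SLA starts and ended inside the 3′ part of TG, and it was the 3rd longest of 28200 peaks. A further peak of 29577 bp (chr8:134138070-134167646) followed it across the end of TG. In ATRA replicate 2, a peak of 43829 bp (chr8:134068885-134112713) covered the inner and middle starts, the 4th longest of 39332, and a peak of 34760 bp (chr8:134136016-134170775) again crossed the end of TG. The longest H3K27ac peaks of control cells in the domain were 5519 bp (chr8:134101534-134107052, replicate 1) and 4705 bp (chr8:134103342-134108046, replicate 2), and both lay at the same place inside SLA. In the same 500 kb window, ATRA replicates 1 and 2 had 23 and 41 H3K27ac peaks and control replicates 1 and 2 had 13 and 31. The number of peaks thus overlapped between the groups, and the covered length did not (143464 and 135576 bp against 22474 and 50794 bp). The shortest peaks were 200 to 270 bp long, and the median lengths were 1790 and 1111 bp with ATRA and 756 and 818 bp in control cells.

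Of the H3K27ac stretches common to all 4 libraries, 9 lay in the domain, 6 of them in SLA and 3 between TG and CCN4. The longest in SLA was 3711 bp (chr8:134103342-134107052), between the canonical and the middle starts, and the longest beyond TG was 3146 bp (chr8:134161633-134164778). These were already marked in control cells. In both ATRA libraries and neither control library, 35 stretches were marked, of which 11 lay in SLA, 9 in the 3′ part of TG, 11 between TG and CCN4, 3 in CCN4 and 1 in the 5′ part of TG. The longest was 8668 bp (chr8:134143031-134151698), across the end of TG.

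TG carried H3K4me3 only inside SLA and downstream of it. The canonical TG start (133879203) carried neither mark within 2 kb in any library, and the nearest H3K27ac peak was 9.13 and 8.13 kb away with ATRA and 90.7 and 28.6 kb away in control cells. Over all annotated TG starts, H3K27ac covered 12539 and 9717 bp with ATRA and 2186 and 4176 bp in control cells. Before scaling, these groups did not overlap, as in 36.1% of protein-coding genes with H3K27ac at their starts. H3K4me3 at these starts overlapped (223 and 2896 bp against 511 and 0 bp). How much of either mark at these starts lies inside SLA was not separated. Outside SLA, TG had 697 and 2741 bp of H3K4me3 with ATRA and 0 bp in both control libraries, a difference of 1719 bp that was 697 bp or 2741 bp when either ATRA library was left out. For H3K27ac, TG outside SLA had 31993 and 25537 bp with ATRA, against 0 and 2575 bp in control cells, a difference of 27478 bp. Nearly all of it lay downstream of SLA, where H3K27ac covered 97.3% and 57.6% of 31991 bp with ATRA and 0% and 3.44% in control cells. Upstream of SLA, over 169770 bp, it covered 873 and 7104 bp with ATRA and 0 and 1475 bp in control cells, so that the groups overlapped. Over whole gene bodies, 37.6% of protein-coding genes with H3K4me3 and 36.5% of those with H3K27ac had both ATRA libraries above both control libraries, a share that scaling lowered to 15.6% and 16.7%. Among gene bodies whose groups did not overlap, 87.3% were higher with ATRA for H3K4me3 and 88.0% for H3K27ac, and 36.3% and 39.2% after scaling. The TG body did so for both marks (26241 and 21350 bp against 5263 and 3889 bp of H3K4me3, and 78460 and 72873 bp against 8448 and 23969 bp of H3K27ac), also after scaling. Since SLA lies inside TG, most of what the TG body carries is also in SLA: all of the H3K4me3 of the control libraries was.

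The thyroid genes were read at starts alone, unlike the TG body, and so give a setting for the TG starts only. Among the genes of thyroid cells, TSHR, SLC5A5, PAX8, NKX2-1, DUOX2 and IYD carried neither mark at their starts in any library, and FOXE1, a thyroid transcription factor, carried H3K4me3 alone, of 929 and 551 bp with ATRA and 1222 and 0 bp in control cells. The median difference over the 8 genes of the list was 0 bp for both marks, against 163 bp for H3K4me3 and 508 bp for H3K27ac over all protein-coding genes with the mark.

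CCN4 carried no H3K4me3 in any library, neither over its body nor within 2 kb of it. Its H3K27ac covered length, with 2 kb on either side, was 17532 and 15301 bp with ATRA and 653 and 3953 bp in control cells. The ATRA libraries were both higher, with means of 16417 ± 1578 bp and 2303 ± 2333 bp (SD, n = 2 each), as was true of 36.5% of all gene bodies with H3K27ac and of 16.7% after scaling. At the CCN4 starts (chr8:134203282-134203380) the replicates differed: H3K27ac covered 3573 bp in ATRA replicate 1 and 0 bp in ATRA replicate 2 and in both control libraries, and the nearest peak in ATRA replicate 2 was 2.30 kb away. Inside the gene, 4859 bp (chr8:134212374-134217232) were marked in both ATRA libraries and in neither control library. Control replicate 2 had 7 short peaks over CCN4 and control replicate 1 had 1.

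The CCN family was read at starts alone, unlike the CCN4 body, and so gives a setting for the CCN4 starts only. Of the 5 other members of the family, CCN2, CCN3, CCN5 and CCN6 carried neither mark at their starts in any library. CCN1 carried H3K4me3 of 3199 and 3772 bp with ATRA and 3972 and 2574 bp in control cells, which overlapped, and H3K27ac of 200 bp in ATRA replicate 2 and 500 bp in control replicate 2. The median difference over the family was 0 bp for both marks.

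Between TG and CCN4 lie 56134 bp without a protein-coding gene. H3K27ac covered 42640 and 32881 bp of it with ATRA and 7283 and 9108 bp in control cells. The groups did not overlap, also after scaling (38430.2 and 22303 bp against 14778 and 9864 bp), where the ATRA libraries differed more from each other than the lower of them from the higher control library. The same held for 37.3% of 360 kb windows with H3K27ac, and for 18.7% after scaling. These windows are longer than the gap, and windows of its own length were not counted. With the −log10 q threshold the groups overlapped (2780 and 0 bp against 2856 and 0 bp). H3K4me3 covered 1281 and 1922 bp with ATRA and 0 bp in control cells. The ATRA values came from different peaks at different places, and 0 bp of the gap were under H3K4me3 in both ATRA libraries. Both ATRA libraries lay above both control libraries in 44.8% of 360 kb windows with H3K4me3, which are also longer than the gap.

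**Figure D3:**
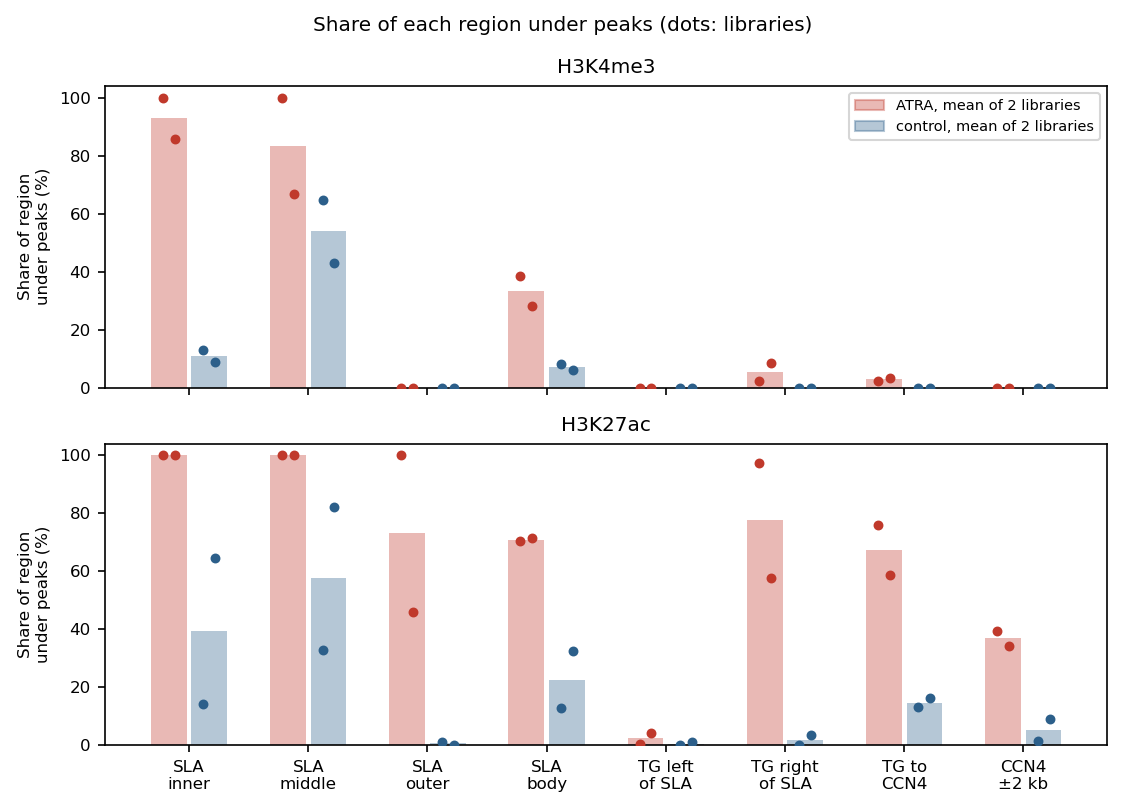
Share of each region under peaks (percent) for H3K4me3 (top) and H3K27ac (bottom), with dots for the 2 libraries of each condition and bars for their mean (ATRA red, control blue). The 3 SLA start groups include 2 kb on either side, and the TG parts exclude SLA. H3K4me3 separates most at the inner SLA starts (100% and 85.6% against 12.8% and 8.94%), and H3K27ac at the outer SLA starts (100% and 46.0% against 1.06% and 0%) and in TG to the right of SLA (97.3% and 57.6% against 0% and 3.44%).

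The marks lay largely on top of each other in ATRA cells. In ATRA replicates 1 and 2, 91.4% and 95.3% of the H3K4me3 bases of the domain were also under H3K27ac of the library with the same number, against 36.4% and 68.6% in control cells. The converse share was small, with 18.3% and 18.8% of the H3K27ac bases under H3K4me3 with ATRA and 11.7% and 7.40% in control cells. H3K27ac covered 4.98 and 5.06 times the length of H3K4me3 in the ATRA libraries, and 3.11 and 9.27 times in the control libraries. A wider H3K27ac stretch covers more of any other mark, and its part in these shares was not tested.

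The neighbours on either side were less different. PHF20L1, which encodes a reader of methylated lysine, had 5174 and 4569 bp of H3K4me3 at its starts with ATRA and 4242 and 3674 bp in control cells. The groups were apart before scaling, as in 27.6% of protein-coding genes with H3K4me3 at their starts. The H3K27ac of PHF20L1, of 1386 and 4722 bp against 690 and 2275 bp, overlapped. NDRG1, a gene known to respond to stress and differentiation, had 4375 and 5320 bp against 6014 and 4084 bp of H3K4me3 and 6411 and 12102 bp against 6385 and 12860 bp of H3K27ac, and both overlapped. In H3K27ac the replicates numbered 1 were lower than those numbered 2 in both conditions there, as they were genome-wide. PTCSC1 (chr8:134067204-134070012, plus strand), a long non-coding RNA gene inside SLA, lies under the left part of the ATRA stretch, and its H3K4me3 was 2809 and 2224 bp with ATRA and 0 bp in both control libraries. The other non-coding genes and the pseudogene RPL21P78 carried no H3K4me3.

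Compared with the other TADs of increased interactions, the domain stood out by covered length more than by ratio for H3K27ac. Its H3K4me3 log2 ratio of 2.24, by which it was chosen, compares with a median of 0.29 over the 71 TADs. The TAD next to it in that order, with KIF6, DAAM2 and MOCS1, had a log2 ratio that is also 2.24, but from 4587 and 2842 bp against 0 bp in both control libraries, so its value rests on the 1000 bp added and was 5.25 with 100 bp, against 2.45 for the domain. The H3K27ac log2 ratio of the domain, also 2.24, was the 27th highest of 71, with a median of 1.75. By the difference in covered length, 101279 bp, it was the 2nd highest, and the median was 12747 bp. The TAD with CHST15 had 54880 and 59046 bp of H3K27ac with ATRA and 0 bp in control cells, and H3K4me3 of 4129 and 3386 bp against 5043 and 3959 bp. Set among all 360 kb windows with a peak, the domain would rank 7th of 4678 by the H3K4me3 log2 ratio, 252nd of 5599 by the H3K27ac log2 ratio and 4th by the H3K27ac difference.

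**Figure D4:**
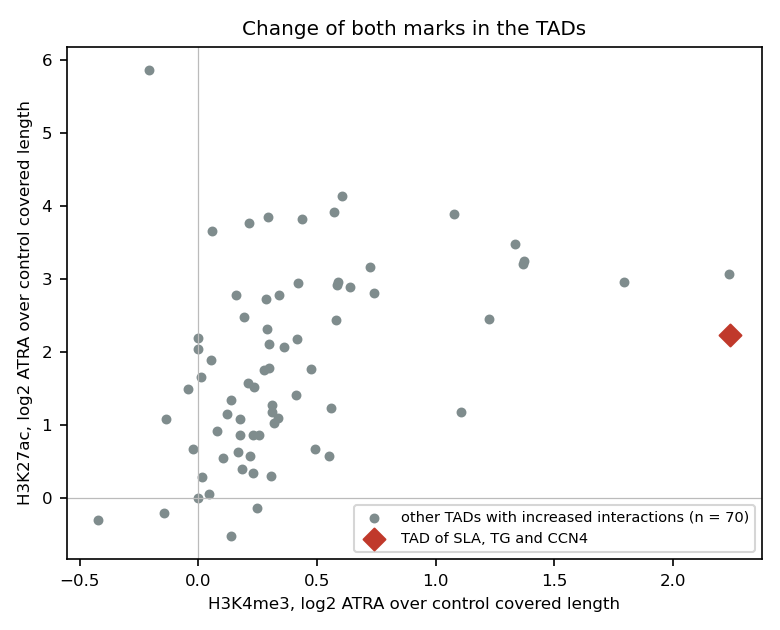
Log2 ratio of ATRA to control covered length (mean of 2 libraries each, 1000 bp added) for H3K4me3 (x axis) and H3K27ac (y axis) in the 71 TADs with increased interactions; the TAD of SLA, TG and CCN4 is the red diamond. It lies at the right end for H3K4me3, by which it was chosen, and in the middle of the range for H3K27ac, 27th of 71.

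The SLA starts are poor in CpG. In the 1001 bp around each start, the ratio of observed to expected CpG was 0.22 at the outer, 0.17 at the middle and 0.28 at the inner starts, against a median of 0.73 over 19817 canonical protein-coding starts. It was 0.16 at the TG start and 0.26 at the CCN4 start. Between 6.51% and 18.0% of all canonical starts had a lower ratio than these 5 and the SLA start near the 3′ end. GC content was 50.2% at the outer, 44.2% at the middle and 47.8% at the inner starts, against a median of 61.3%.

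The domain held 1 match, on either strand, to the DR5 motif, the direct repeat with a spacer of 5 bases that retinoic acid receptors are known to bind. It lay at chr8:134116384-134116400, 1.55 kb upstream of the canonical SLA start, under H3K27ac in both ATRA libraries and in neither control library. A match is common, since 50.0% of 7629 windows of the same length held at least 1. Of 5731 matches on chromosomes 1 to 22 and X, 105 (1.83%) were marked by H3K27ac in the same way, while of all bases of this domain 18.1% were. No other retinoic acid element was searched for, and a match of letters is no measurement of binding.

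The genes whose pattern was most like that of SLA were sought among all protein-coding genes outside the 500 kb window, by the Euclidean distance over the 8 libraries of the log2 covered length of the gene body with 2 kb on either side (1000 bp added). Among the nearest were FGD4, a GTPase exchange factor, at a distance of 1.48, ALOX5AP, which leukotriene synthesis requires, at 1.51, IRF1, an interferon response factor, at 1.75, and RB1, which restrains the cell cycle, at 1.89. SLA itself had 25544 and 18609 bp of H3K4me3 with ATRA and 5263 and 3889 bp in control cells. ALOX5AP had 17145 and 12672 bp against 7088 and 6909 bp, and FGD4 17500 and 16025 bp against 9959 and 4043 bp. In H3K27ac, ALOX5AP had 28769 and 32543 bp against 8328 and 15484 bp, while FGD4 had 30490 and 51297 bp against 4723 and 31213 bp and so overlapped between the groups. Each of these genes is compared over the libraries that chose it, and the distance is a description.

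The proteins that SLA works with, or is related to, were given at their starts from a list of 15 genes. For H3K27ac, 10 of the 15 had both ATRA libraries above both control libraries and none the reverse, against 36.1% of all genes with the mark, and the median difference was 1600 bp against 508 bp. For H3K4me3, 5 of the 15 did so and none the reverse, against 27.6% of all genes with the mark, with a median difference of 279 bp against 163 bp. After scaling, 4 were higher and 2 lower for H3K27ac and 3 higher and 2 lower for H3K4me3, against 12.8% higher and 32.7% lower of all genes for H3K27ac and 8.50% and 48.9% for H3K4me3. Starts covered whole in every library, such as LCP2 for H3K4me3, count as lower here by scaling alone. With the −log10 q threshold of 5, 1 was higher and 0 lower for H3K27ac and 3 higher and 1 lower for H3K4me3. The list medians include genes without a peak, and those over all genes do not.

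Among the receptors, CSF1R, the receptor of macrophage colony-stimulating factor, had 7968 and 9142 bp of H3K27ac with ATRA and 2122 and 3518 bp in control cells, and 1510 and 801 bp against 0 bp of H3K4me3. CSF2RB, the shared beta chain of cytokine receptors, had 5692 and 6568 bp against 2189 and 3125 bp of H3K27ac. KIT, the receptor of stem cell factor, had 2322 and 2992 bp against 0 and 944 bp of H3K27ac, while its H3K4me3 overlapped (3826 and 2868 bp against 4551 and 2099 bp). FLT3, a receptor of early blood cells, had H3K4me3 that overlapped (1259 and 718 bp against 740 and 0 bp) and H3K27ac in control replicate 2 alone (68 bp).

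Among the kinases and receptor chains, FCER1G, the common gamma chain of Fc receptors, had more of both marks in both ATRA libraries before scaling, with 3973 and 3982 bp against 2607 and 1687 bp of H3K4me3. LCK, a Src family kinase of T cells, had no H3K4me3, and H3K27ac of 5059 and 4075 bp against 931 and 200 bp. SYK, the kinase below Fc and B cell receptors, overlapped in both marks (5696 and 6499 bp against 3162 and 6306 bp of H3K27ac), and so did ZAP70, its T cell relative, which had no H3K4me3. CD247, the zeta chain of the T cell receptor, had no H3K27ac in any library and H3K4me3 that overlapped.

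Among the adaptors and ligases, SLA2, the closest relative of SLA, had no H3K4me3 in any library and 4283 and 2628 bp against 1144 and 809 bp of H3K27ac. CBL, the ligase that SLA recruits, had 4020 and 4058 bp against 654 and 2832 bp of H3K27ac and H3K4me3 that overlapped. CBLB, a ligase of the same family, had 4834 and 4463 bp against 4432 and 4376 bp of H3K4me3, and H3K27ac in the replicates numbered 2 alone, of 2698 bp with ATRA and 2286 bp in control cells. LCP2, an adaptor of T cells and myeloid cells, was covered by H3K4me3 over the whole 4089 bp in all 4 libraries, and its H3K27ac was 6027 and 5623 bp against 1702 and 4089 bp. VAV1, an exchange factor of blood cells, had slightly more H3K4me3 in both ATRA libraries before scaling (2673 and 2654 bp against 2499 and 2271 bp).

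The stricter threshold on the deposited −log10 q, at least 5, left the H3K4me3 of the SLA promoters of both ATRA libraries whole and reversed the H3K27ac result. After it, H3K27ac of the domain was 5263 and 3017 bp with ATRA and 11304 and 2494 bp in control cells, with 3 of 23, 4 of 41, 8 of 13 and 5 of 31 peaks of the window left. Over the genome, 15.0% and 16.9% of the ATRA peaks and 16.8% and 12.8% of the control peaks passed. In the domain, control replicate 1, with 8 of 13 peaks of the window left, had the highest value. Among the libraries numbered 2, the ATRA value of the domain stayed higher. At the SLA promoters, 0 bp were left in both ATRA libraries and in control replicate 2, against 2323 bp in control replicate 1. In TG outside SLA the difference became -301 bp, although control replicate 1 had 0 bp there even without the threshold. The long ATRA peaks are among those that the threshold removes. The same column hardly agreed between replicates: over overlapping peaks, Spearman's rho was 0.057 for ATRA and 0.061 for control H3K27ac, and 0.18 and 0.12 for H3K4me3, a description over 12035 to 20578 pairs of overlapping peaks. Within a library, its rho with the peak's length was between 0.076 and 0.12, and its rho with the value of the row before was between 0.41 and 0.66. Its relation to peak height could not be checked, because the deposited columns meant for height and −log10 p hold impossible values.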

How the data were processed

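The members and gene lists were chosen with earlier results of these data known. Per the methods and labels, the authors trimmed adapters, used Bowtie to align reads to hg19 and MACS2 (broad peaks, no fragment model) to call each library on its own. Genomic DNA was also made into input libraries, and whether MACS2 used it is not given in the sources used here. Peak positions and the −log10 q value were used as deposited, the latter only as a threshold of 5. Impossible values in the deposited columns for fold enrichment and −log10 p kept them out of use.

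Positions are 1-based in hg19. The reference was GRCh37 with GENCODE release 44, and 0 peaks ran past a chromosome end. TAD positions came from the study's list of 152 TADs (40 kb bins). Covered length per region was computed in Python 3.11.15 with numpy 2.4.6 and pandas 2.3.3, checked against bedtools 2.31.1 (0 of 168 values differed) and tested on simulated peaks. Changes are differences of means over 2 libraries, or log2 ratios with 1000 bp added. Windows, gene bodies and start intervals (2 kb on either side) were used where any of the 4 libraries of a mark had a peak.

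The genes named were the 3 members, the genes overlapping the 500 kb window, the 5 genes most like SLA, the members of the lists and the TADs of KIF6 and CHST15. The peak names carry a tag that an ATRA library shares with the control library of its number. Pearson's r of their deviations from the condition means was 0.22 (H3K4me3) and 0.56 (H3K27ac) across 75918 bins of 40 kb, a description, and with the tag it led to a paired reading of the numbers. Alternatives were the pseudocount, the region borders, the transcripts used, the −log10 q threshold, peaks found in both replicates (at least 1 bp shared), scaling to the genome-wide covered length, the number of peaks, the replicate block and leaving out each library. Scaling and the threshold for the gene lists, the single start groups and the gap between TG and CCN4, and other pseudocounts for the rank among TADs, were added after seeing the data. Some items that the rule and the lists cover are not reported.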

Additional observations from a re-analysis of the deposited data

How the results depend on the processing

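Of 106 alternative values, 5 reversed and 29 moved by more than 1 SD between replicates (for shares, by over 1.5 times in number of features, and for numbers of peaks, in whether the groups overlapped). The other 72 include 11 values of H3K4me3 at CCN4, all 0, and 5 differences that the replicate block cannot change. They also include the log2 ratio by number of peaks for H3K4me3 in the domain (0.89) and the shares over all features, whose numbers are fixed and whose denominators grow (24.9% and 24.8% of windows, 23.5% and 23.6% of gene bodies, 16.5% and 21.5% of start intervals, for H3K4me3 and H3K27ac). With the replicate block, the log2 ratio of the domain was 2.25 for H3K4me3 and 2.34 for H3K27ac, and paired differences in bp equal the reported ones by construction, so the block changed no statement. A pseudocount of 5000 bp gave a log2 ratio of 1.67 for H3K4me3 in the domain. At the SLA promoters, 1 kb and 5 kb on either side gave differences of 2659 and 12679 bp for H3K4me3 and 4298 and 21924 bp for H3K27ac, in smaller and larger regions, and protein-coding transcripts only gave 3265 bp for H3K4me3.

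A −log10 q of at least 5 turned the H3K27ac values around in the domain (log2 ratio of -0.62), at the SLA promoters (-1162 bp) and in TG outside SLA (-301 bp), and left 1300 bp at CCN4 and 0 bp of H3K4me3 in TG outside SLA. The cause was not tested. Peaks found in both replicates gave 513 bp of H3K4me3 in TG outside SLA and 11661 bp of H3K27ac at CCN4. Scaling to the genome-wide covered length gave H3K27ac values of 1.47 (log2 ratio, domain), 3912 bp (SLA promoters), 21684 bp (TG outside SLA) and 10287 bp (CCN4). Counting peaks reversed the difference at the SLA promoters, to -0.5 peaks for H3K4me3 and -1.5 peaks for H3K27ac, since fewer and longer peaks covered more bases. For H3K27ac it gave 0.41 (log2 ratio, domain), 6 peaks (TG outside SLA) and 2.5 peaks (CCN4), with overlapping groups.

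Leaving out 1 library at a time, the H3K27ac log2 ratio of the domain ranged from 1.79 (without control replicate 1) to 2.89 (without control replicate 2), and the H3K4me3 difference in TG outside SLA from 697 to 2741 bp. The share of windows higher in both ATRA libraries was 19.2% for H3K4me3 and 18.7% for H3K27ac after scaling, and 15.3% for H3K27ac with the −log10 q threshold. For gene bodies these shares were 15.6%, 16.7% and 7.59%, and for start intervals 8.50%, 12.8% and 5.90%. Covered length is limited by an unknown sequencing depth, by 2 libraries per condition and by peak calls that may break a stretch at small gaps.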
